A study of Rattus norvegicus with 12 samples.

Results

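Atf4 (ENSRNOG00000017801), Ddit3 (ENSRNOG00000006789) and Hspa5 (ENSRNOG00000018294) are 3 genes of the cellular stress response, picked by identifier from the 25424 genes read from an RNA-seq table of rat primary cortical neurons. All 3 were present, and all 3 were among the 12150 tested genes, whose FPKM averaged 1 or more over the libraries. FPKM is the number of sequenced fragments of a gene relative to its transcript length and to all mapped fragments of a library, so it is a level per length. The neurons came from Sprague-Dawley rat embryos, with no genetic change named in the labels, and were kept for 27 days in vitro, then exposed for 24 h to 100 nM of synthetic rat amyloid-β peptide (Aβ) or to vehicle, and lysed at day 28. Cycloheximide, which stalls ribosomes on their mRNAs, was given to the cells of every group before lysis. From each treatment, RNA was taken from the cytosolic lysate (total RNA) and from the pellet that the lysate left below a sucrose cushion (the ribosome fraction). The 4 groups were vehicle total (libraries 4, 8 and 12), vehicle ribosome (libraries 2, 6 and 10), Aβ total (libraries 3, 7 and 11) and Aβ ribosome (libraries 1, 5 and 9). Each thus had 3 libraries, 12 in all, numbered as in the sample names. A cushion pellet does not separate mRNAs with many ribosomes from those with few, and it can hold other heavy particles.

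The unfolded protein response answers misfolded protein in the endoplasmic reticulum, and the wider integrated stress response answers several kinds of stress through phosphorylation of the initiation factor eIF2. That phosphorylation lowers protein synthesis in general, while the mRNA of Atf4, a transcription factor of amino acid supply and redox balance, is translated more, because short reading frames upstream of its coding sequence otherwise hold ribosomes back. Ddit3 encodes CHOP, a transcription factor induced by ATF4 and linked to cell death under lasting stress, and its mRNA also carries an inhibitory upstream reading frame. Hspa5 encodes BiP, the main HSP70 chaperone of the endoplasmic reticulum, which is a target of the transcription factor ATF6 and keeps the stress sensors inactive while it is bound to them.

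The sequence that the 3 genes carry next to their transcription start is shown because this is a region where stress-responsive transcription factors are known to act. The 250 bases before the start of each gene were taken from RefSeq, GRCr8 assembly, and all 3 genes lie on the plus strand. The region was chr7:113684431-113684680 for Atf4, chr7:65001445-65001694 for Ddit3 and chr3:38452766-38453015 for Hspa5. Capitals mark the letters CCAAT on either strand (ATTGG on the printed strand). In Hspa5 they also mark the CCACG of an exact match to an endoplasmic reticulum stress element.
Atf4: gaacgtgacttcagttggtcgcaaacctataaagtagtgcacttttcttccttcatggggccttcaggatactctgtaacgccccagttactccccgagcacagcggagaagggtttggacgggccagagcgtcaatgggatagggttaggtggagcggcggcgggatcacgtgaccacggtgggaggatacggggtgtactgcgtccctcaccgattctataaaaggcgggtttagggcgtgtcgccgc
Ddit3: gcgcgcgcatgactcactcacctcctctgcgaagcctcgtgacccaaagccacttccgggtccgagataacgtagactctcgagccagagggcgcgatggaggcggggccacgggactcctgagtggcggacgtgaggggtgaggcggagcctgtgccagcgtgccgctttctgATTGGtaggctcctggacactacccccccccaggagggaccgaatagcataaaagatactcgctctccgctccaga
Hspa5: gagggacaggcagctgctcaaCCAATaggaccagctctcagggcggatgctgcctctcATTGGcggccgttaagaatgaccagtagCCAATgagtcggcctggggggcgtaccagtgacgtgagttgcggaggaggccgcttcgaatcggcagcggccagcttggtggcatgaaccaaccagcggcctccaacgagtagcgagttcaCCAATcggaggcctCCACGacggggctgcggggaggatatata

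The stress element was searched on both strands as the exact letters CCAAT and CCACG separated by 9 bases, so each match also holds a CCAAT. The Hspa5 promoter held 1 match, from 43 to 25 bases before the start, and 4 CCAAT in all. The same element was found in 21 of the 27457 rat promoters of this length (0.0765%), and CCAAT on either strand in 9416 (34.3%). Ddit3 held 1 CCAAT and Atf4 none. On the strand not printed, this CCAAT of Ddit3 was followed after 9 bases by GCACG. That differs from CCACG in 1 letter and was not counted as a match, so a near form of the element in Ddit3 is not excluded. The letters TGATGNAAT, a form of the site bound by ATF4 with CHOP or C/EBP proteins, were in 255 promoters (0.929%) and in none of these 3 windows. These matches describe letters and were not tied to any measurement below. The upstream reading frames lie in the transcripts, for which no sequence was used here.

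The libraries had 14.1 M to 20.04 M mapped fragments in the ribosome fraction and 16.3 M to 18.8 M in total RNA, recovered from the step between FPKM values. The 20 genes with most fragments held 19.5 to 28.7% of the listed fragments of a ribosome library and 8.87 to 9.61% of a total library. Since FPKM are relative to all fragments of a library, values were also divided by median-of-ratios size factors (scaled FPKM). Vehicle ribosome library 2 stood apart, with an SD of log2 differences from the other libraries of its fraction of 0.57, against 0.32 to 0.40 for the other ribosome libraries and 0.18 to 0.23 for the total libraries. Values without it are given where they bear on a result. The table gives Ensembl identifiers without symbols, so neuronal and glial markers and the other genes of the stress pathways were not counted. In these bulk samples a change in the makeup of the culture and a change of RNA per cell cannot be told apart.

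All 3 genes were well expressed. Atf4 was the highest of the 3 in every library, Hspa5 the next and Ddit3 the lowest, on the FPKM scale, which is per length. Atf4 ranked between 239 and 407 among the tested genes of a library, Hspa5 between 386 and 658, and Ddit3 between 1325 and 2893. Atf4 rested on 4539 to 7595 fragments per library, Hspa5 on 5375 to 7545 and Ddit3 on 485 to 899, on transcripts recovered as 1406, 2562 and 861 bases long. Counting error alone was then 1.15 to 1.48% for Atf4, 1.15 to 1.36% for Hspa5 and 3.34 to 4.54% for Ddit3. In the RefSeq annotation Ddit3 overlaps 2 other genes, Mars1 and LOC134479709. Fragments shared with an overlapping gene are not counted in HTSeq's union mode, and the annotation and strand setting of the authors are not given in the sources used here, so the level of Ddit3 is uncertain to that extent.

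**Figure D1:**
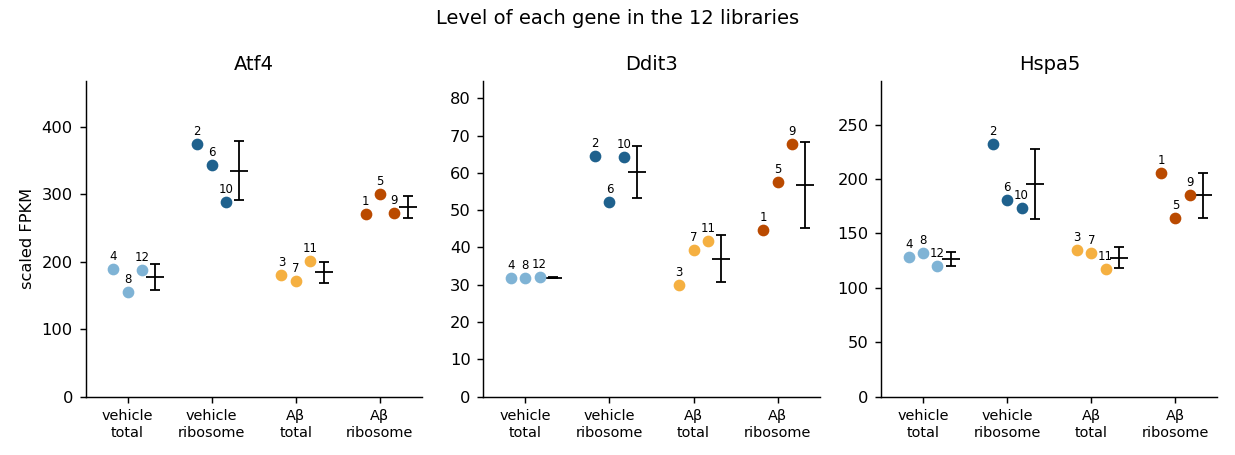
Scaled FPKM (y axis, linear from 0) of Atf4, Ddit3 and Hspa5 in the 12 libraries by group; numbers are library numbers, and the black mark beside each group is the mean with its SD (n = 3). For each gene, every ribosome library lies above every total library.

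Atf4 was read at an FPKM of 331.8, 283.5 and 275.3 in vehicle ribosome libraries 2, 6 and 10, and of 217.1, 179.6 and 202.3 in vehicle total libraries 4, 8 and 12. In Aβ it was 265.5, 269.6 and 249.8 in ribosome libraries 1, 5 and 9, and 205.2, 194.6 and 218.7 in total libraries 3, 7 and 11. Within each treatment every ribosome library was above every total library, both as deposited and after scaling. The scaled mean was 335 ± 43.6 (SD, n = 3) in vehicle ribosome RNA and 177 ± 19.4 in vehicle total RNA, a ratio of 1.89, and 281 ± 16.9 against 184 ± 15.8 in Aβ, a ratio of 1.52. As deposited, the ratios were 1.49 and 1.27.

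Ddit3 was far lower, with an FPKM of 57.1, 43.1 and 61.3 in vehicle ribosome libraries 2, 6 and 10 and of 36.5, 36.9 and 34.6 in vehicle total libraries 4, 8 and 12. In Aβ ribosome libraries 1, 5 and 9 it was 43.9, 51.6 and 62.0, and in Aβ total libraries 3, 7 and 11 it was 34.0, 44.6 and 45.3. The fractions did not overlap in vehicle, while in Aβ they overlapped as deposited, ribosome library 1 being below total libraries 7 and 11, and did not overlap after scaling. The scaled mean was 60.3 ± 7.06 against 31.9 ± 0.209 in vehicle, a ratio of 1.89, and 56.7 ± 11.5 against 37.0 ± 6.30 in Aβ, a ratio of 1.53 (SD, n = 3 each). The coefficient of variation of the 3 vehicle total libraries, 0.656%, was below the counting error of 4.18 to 4.54% of each of these values, so this SD is too small to stand for the spread of the gene. As deposited, the ratios were 1.496 and 1.27.

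Hspa5 was read at an FPKM of 205.5, 149.2 and 165.7 in vehicle ribosome libraries 2, 6 and 10 and of 147.6, 152.5 and 128.7 in vehicle total libraries 4, 8 and 12. In Aβ it was 201.9, 147.0 and 170.1 in ribosome libraries 1, 5 and 9, and 153.2, 150.2 and 126.6 in total libraries 3, 7 and 11. As deposited the fractions overlapped in both treatments, with ribosome libraries 5 and 6 among the total libraries. After scaling they did not overlap, with means of 195 ± 31.9 against 127 ± 6.14 in vehicle (ratio 1.54) and of 185 ± 20.9 against 128 ± 9.55 in Aβ (ratio 1.45; SD, n = 3 each). As deposited, both ratios were 1.21. For this gene the separation of the fractions thus depended on the scaling.

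Whether mRNAs were more abundant among ribosome-fraction RNA than in total RNA was then tested within each treatment by limma on log2(scaled FPKM + 1), with p-values adjusted by Benjamini-Hochberg over all 12150 genes. In both treatments all 3 stress genes were higher in ribosome-fraction RNA than in total RNA. In vehicle the log2 fold change was 0.91 for Atf4 (SE 0.16, 95% interval 0.54 to 1.29, limma adjusted p = 0.00671), 0.89 for Ddit3 (SE 0.14, 0.57 to 1.20, adjusted p = 0.00425) and 0.61 for Hspa5 (SE 0.15, 0.25 to 0.97, adjusted p = 0.0216). In Aβ it was 0.61 for Atf4 (SE 0.11, 0.35 to 0.87, limma adjusted p = 0.00546), 0.60 for Ddit3 (SE 0.18, 0.17 to 1.02, adjusted p = 0.0337) and 0.53 for Hspa5 (SE 0.12, 0.25 to 0.81, adjusted p = 0.0119). The paper describes the fractions as paired, and with runs as a replicate block, an assumed pairing, Hspa5 in vehicle stayed at 0.61 (SE 0.21) and no longer passed (limma adjusted p = 0.0595), while the other 5 calls were kept. For comparison, 15.9% of all tested genes were called higher in ribosome-fraction RNA in vehicle and 19.6% in Aβ, and the 3 genes were picked by name, with results of these data known.

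**Figure D2:**
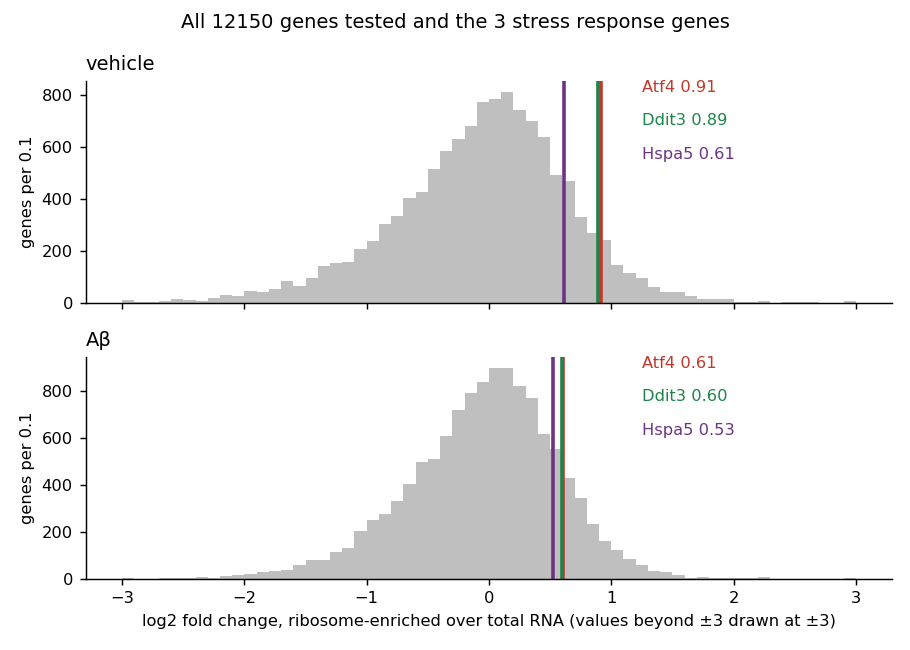
Number of tested genes (y axis) by log2 fold change of the ribosome fraction over total RNA (x axis, steps of 0.1) in vehicle (top) and in Aβ (bottom), with Atf4, Ddit3 and Hspa5 as vertical lines. The lines stand on the upper side of the distribution, between percentiles 84.8 and 93.4 in vehicle and between 84.0 and 87.6 in Aβ.

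The 3 genes lay on the upper side of the distribution of all genes without being at its end. Atf4 stood at percentile 93.4 of the log2 fold changes in vehicle and 87.6 in Aβ, Ddit3 at 92.9 and 87.1, and Hspa5 at 84.8 and 84.0. In vehicle 3925 genes were called, 1932 of them higher in the ribosome fraction, and in Aβ 4993, 2385 of them higher. This split moved with the scaling, to 918 higher of 4562 called and 1138 of 5243 with FPKM as deposited, and to 2469 of 4188 and 2963 of 5182 with upper-quartile scaling. All 3 ribosome libraries were above all 3 total libraries for 26.0% of tested genes in vehicle and 27.3% in Aβ, and all 6 above all 6 for 19.1%, among them Atf4, Ddit3 and Hspa5 on the scaled values.

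With FPKM as deposited the median log2 fold change of all genes fell by 0.30 in vehicle and 0.23 in Aβ, and the members moved with it. Atf4 was then 0.57 in vehicle and 0.34 in Aβ and passed the test in both, and Ddit3 was 0.55 in vehicle and passed there. Ddit3 in Aβ, at 0.34 (limma adjusted p = 0.13), and Hspa5, at 0.27 in vehicle (adjusted p = 0.194) and 0.26 in Aβ (adjusted p = 0.172), did not pass. Relative to the median of all genes on that scale, Atf4 was higher by 0.87 and 0.57, Ddit3 by 0.85 and 0.56, and Hspa5 by 0.57 and 0.49 in vehicle and Aβ. Whether the ribosome fraction holds more of these mRNAs per cell, rather than relative to other mRNAs, cannot be told apart in FPKM. With each library's trend with transcript length removed, an alternative added after the data were seen, Ddit3, the shortest of the 3, fell to 0.59 in vehicle (adjusted p = 0.0183) and 0.39 in Aβ (adjusted p = 0.0944), while Hspa5, the longest, was 0.70 and 0.60, both past the threshold.

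**Figure D3:**
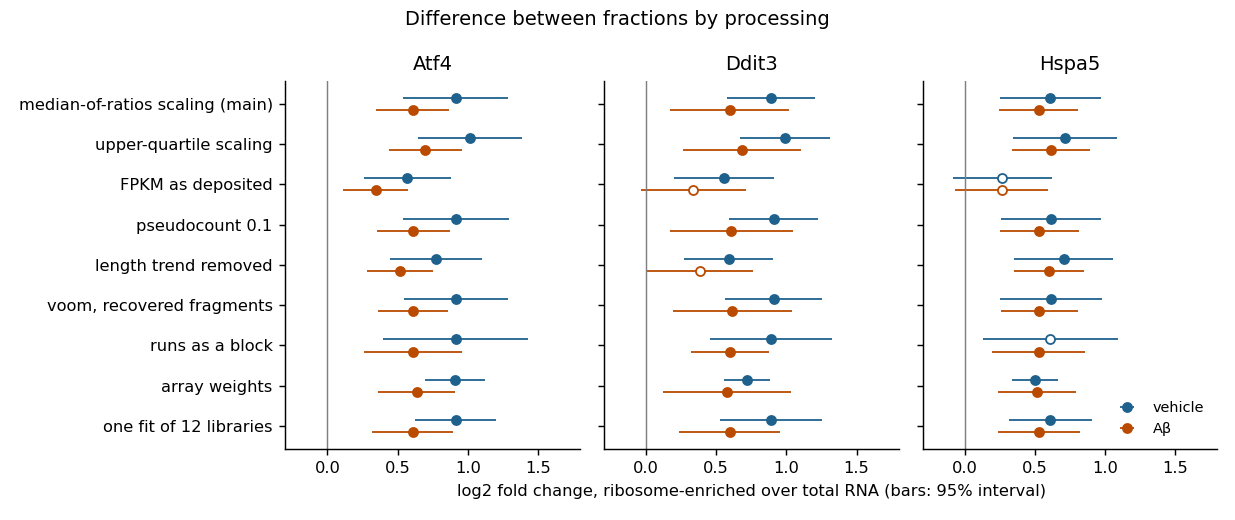
Log2 fold change of the ribosome fraction over total RNA (x axis) for each gene under 9 ways of processing (y axis), in vehicle (blue) and Aβ (orange); bars are 95% intervals, and open circles did not pass an adjusted p of 0.05. All points lie above 0, and the open circles belong to Ddit3 in Aβ and to Hspa5.

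Over both treatments, an exact permutation test (two-sided, fraction labels exchanged within each treatment, 400 arrangements) gave a mean log2 difference of 0.76 for Atf4, 0.74 for Ddit3 and 0.57 for Hspa5, each with p = 0.005, the smallest these arrangements can give. The 19.1% of tested genes with all 6 ribosome libraries above all 6 total libraries reach the same p. It does not set these 3 genes apart. The test takes the libraries of both treatments as independent. Libraries of 1 run of consecutive numbers deviated together within a fraction (correlation 0.406 to 0.699 in 6 pairs), so these exact p-values may be too small. On FPKM as deposited the same exact test gave 0.46 (p = 0.005), 0.44 (p = 0.015) and 0.27 (p = 0.04). Without vehicle ribosome library 2, the vehicle differences were 0.83 for Atf4, 0.84 for Ddit3 and 0.48 for Hspa5 (limma adjusted p = 0.0158), all still past the threshold, and the exact permutation test over both treatments gave 0.72, 0.72 and 0.50, each with p = 0.005. The call of Hspa5 in vehicle was lost without any 1 of the total libraries 4, 8 or 12 (adjusted p up to 0.0904). That of Ddit3 in Aβ was lost without ribosome library 5 or 9 or total library 3, 7 or 11 (adjusted p up to 0.115), and that of Hspa5 in Aβ without total library 11 (adjusted p = 0.0507).

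The difference between fractions was nominally larger in vehicle than in Aβ for each gene, without passing the test, and for Hspa5 the order turned without vehicle ribosome library 2 (0.05). The interaction of treatment and fraction on the log2 scale was -0.30 for Atf4 (SE 0.19, 95% interval -0.71 to 0.10), -0.29 for Ddit3 (SE 0.23, -0.80 to 0.22) and -0.08 for Hspa5 (SE 0.19, -0.50 to 0.33). The unadjusted limma p was 0.13, 0.233 and 0.667, and the adjusted p 0.999996 for all 3. With 1 library left out, the Atf4 interaction ranged from -0.41 (-0.79 to -0.03, limma adjusted p = 0.744) without vehicle ribosome library 10 to -0.21 without vehicle total library 8, and was -0.22 without vehicle ribosome library 2. No gene of the 12150 was called by limma (0.0%), and 84 had an unadjusted p under 0.05. This number moved with the fit, to 64 with voom weights on the recovered fragments, 309 with runs within each fraction as a block, 613 without vehicle ribosome library 10 and 883 with array weights, with 0 genes called in each of these 4. Libraries with consecutive numbers form 3 runs of 4, 1 of each group, and within a run the vehicle difference exceeded the Aβ difference in 3 of 3 runs for Atf4 (0.98 against 0.58, 1.14 against 0.81 and 0.61 against 0.43). Ddit3 showed the same order in 3 of 3 runs (0.999 against 0.57, 0.69 against 0.54 and 0.98 against 0.68) and Hspa5 in 2 of 3 (0.85 against 0.61, 0.45 against 0.31 and 0.53 against 0.66). That a run is one culture is an assumption. The share of all tested genes with the larger difference in vehicle in every run was not counted. These counts of runs therefore do not set Atf4 or Ddit3 apart from other genes. Large differences between fractions were also more frequent in vehicle among all genes. Called genes that moved by 1 or more on the log2 scale numbered 1599 in vehicle and 1160 in Aβ. Without vehicle ribosome library 2 the vehicle number was 1353. With any 1 library left out it was 1193 to 2313 in vehicle and 811 to 1535 in Aβ, so these ranges overlapped. Without the limit of 1 on the log2 scale fewer were called in vehicle (3925 against 4993).

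The comparison of Aβ with vehicle asks whether the peptide moved these mRNAs in either fraction. In the ribosome fraction Atf4 had a scaled level of 270 to 301 in the Aβ libraries and 288 to 375 in the vehicle libraries, so the groups overlapped. As deposited it read 249.8 to 269.6 and 275.3 to 331.8, without overlap. How many of all tested genes were separated in this way was not counted, so the separation cannot be called particular to Atf4. The log2 difference, Aβ minus vehicle, was -0.25 (95% interval -0.54 to 0.04) and did not pass the test (limma, adjusted p = 0.9997). Libraries of 1 run deviated together within a fraction (correlation 0.406 to 0.699 in 6 of 6 pairs), and with runs within each fraction as a block the interval was -0.48 to -0.01, which among the 3 genes leaves out 0 for Atf4 only (unadjusted limma p = 0.0421, adjusted p = 0.695). Without vehicle ribosome library 10 the difference was -0.35 (-0.63 to -0.07, limma adjusted p = 0.37), and without vehicle ribosome library 2 it was -0.16. Atf4 passed the adjusted threshold in none of the 17 alternatives. Ddit3 differed by -0.10 (-0.46 to 0.26) and Hspa5 by -0.07 (-0.36 to 0.22) in that fraction. In total RNA the differences were 0.06 for Atf4 (-0.23 to 0.35), 0.19 for Ddit3 (-0.17 to 0.55) and 0.01 for Hspa5 (-0.28 to 0.31). No gene passed limma's threshold in either fraction (0.0% of 12150 in both), where an unadjusted p under 0.05 was found for 178 genes of the ribosome fraction and 20 of total RNA. These numbers were 120 and 16 with voom weights, 627 and 102 with runs within each fraction as a block, and 852 and 377 with array weights, and the first was 1606 without vehicle ribosome library 10. The calls were 0 in each of these fits. The signs of the differences near 0 turned under some alternatives, for Ddit3 and Hspa5 in the ribosome fraction and for Atf4 and Hspa5 in total RNA.

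These intervals give the sizes of change that 3 libraries a group left possible, and do not show that the levels were alike. By run, Atf4 in the ribosome fraction was lower in Aβ in 3 of 3 runs (-0.47, -0.19 and -0.08), whereas Ddit3 was lower in 1 (-0.52, 0.14 and 0.08) and Hspa5 in 2 (-0.17, -0.14 and 0.10). The share of all tested genes lower in every run was not counted, so these signs do not set Atf4 apart from other genes.

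**Figure D4:**
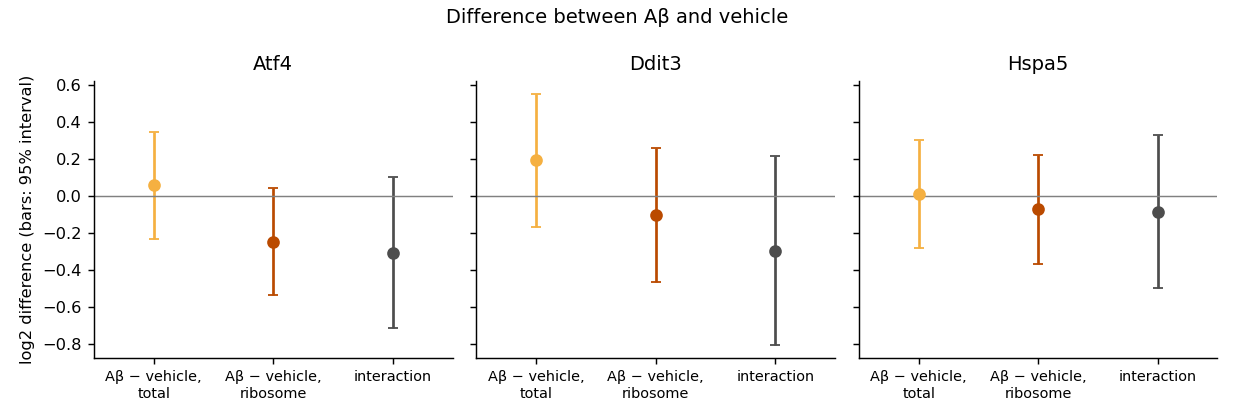
Log2 difference (y axis, bars 95% intervals) between Aβ and vehicle in total RNA and in the ribosome fraction, and their interaction, for each gene. All 9 intervals of this fit, which has no block for the runs, include 0, and the Atf4 interval in the ribosome fraction, -0.54 to 0.04, reaches it least.

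Because FPKM are per length, the genes could also be set against each other within a library, where library scaling cancels. Atf4 was 4.03 to 6.58 times Ddit3 in the ribosome libraries (median 5.52, n = 6) and 4.36 to 6.03 times Ddit3 in the total libraries (median 5.36, n = 6). The ratio of Atf4 to Hspa5 was 1.32 to 1.90 (median 1.64) in the ribosome fraction and 1.18 to 1.73 (median 1.40) in total RNA, and that of Hspa5 to Ddit3 was 2.70 to 4.60 (median 3.16) and 2.80 to 4.50 (median 3.89). Over all 12 libraries the ranges of the fractions overlapped for all 3 ratios. Within vehicle they did not overlap for Hspa5 to Ddit3, at 2.70 to 3.60 in ribosome libraries and 3.72 to 4.13 in total libraries, nor for Atf4 to Hspa5, at 1.61 to 1.90 and 1.18 to 1.57, whereas within Aβ both overlapped. How many ratios between other genes were separated in this way was not counted. The ribosome minus total difference of the log2 ratio was 0.00374 for Atf4 to Ddit3, 0.19 for Atf4 to Hspa5 and -0.19 for Hspa5 to Ddit3, beside a pooled SD between libraries of a group of 0.25, 0.21 and 0.30. Exact permutation tests within treatment gave p = 0.985, 0.135 and 0.265 (adjusted over these 3 ratios 0.985, 0.398 and 0.398). These tests too take the libraries of both treatments as independent. A difference in ribosome-fraction share between the 2 transcripts with upstream reading frames, or between either of them and the chaperone transcript, was thus not detected, which does not show that they behaved alike.

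**Figure D5:**
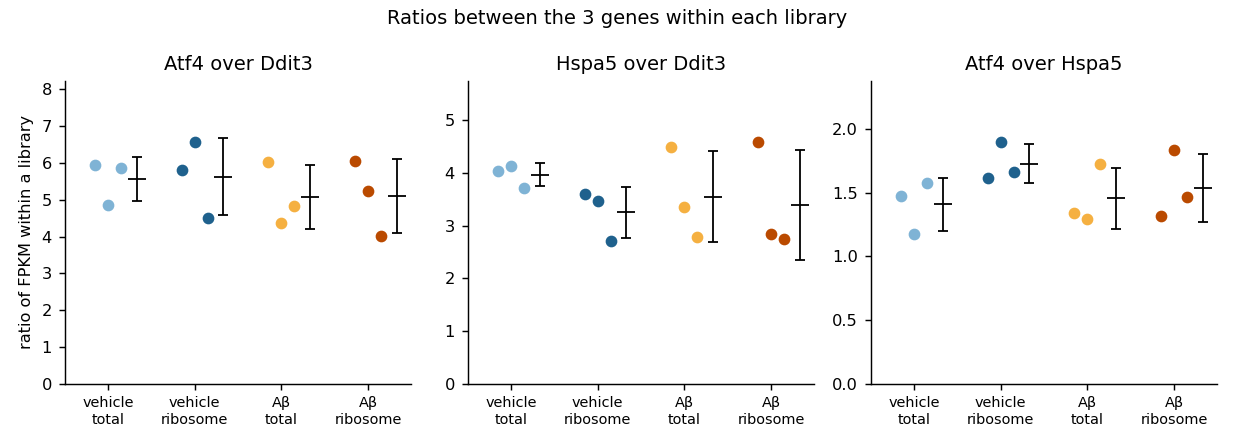
Ratio of FPKM between 2 of the genes within each library (y axis, linear from 0), by group, with the mean and SD (n = 3) beside the points. The fractions overlap in Aβ in all 3 panels, and in vehicle they overlap only for Atf4 over Ddit3.

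The spread between libraries of a group, from 3 libraries each and not tested between genes, had no fixed order among the 3 genes. The SD of log2 values in the vehicle ribosome group was 0.19 for Atf4, 0.17 for Ddit3 and 0.23 for Hspa5, against a median of 0.30 over all tested genes. In vehicle total RNA it was 0.16, 0.0092 and 0.07, against 0.12. In Aβ ribosome RNA it was 0.08, 0.30 and 0.16, against 0.21, and in Aβ total RNA 0.12, 0.25 and 0.11, against 0.11. Ddit3 thus had the lowest SD of the 3 in both vehicle groups and the highest in both Aβ groups. Its vehicle total SD is the one below counting error, and in vehicle ribosome RNA it was close to that of Atf4 (0.17 and 0.19). Whether the spread changed with treatment was not tested. Over the 12 libraries, the tested gene whose pattern was nearest to Atf4, by the root mean square difference of centred log2 values, was ENSRNOG00000004364 (0.066, against a median of 0.47 over all genes), that nearest to Ddit3 was ENSRNOG00000048553 (0.12, median 0.48) and that nearest to Hspa5 was ENSRNOG00000020288 (0.070, median 0.40). Between the stress genes this distance was 0.21 for Atf4 and Ddit3, 0.21 for Atf4 and Hspa5 and 0.26 for Ddit3 and Hspa5. Many other genes were nearer. From Atf4, Ddit3 ranked 1061 and Hspa5 936 among the tested genes by nearness. From Ddit3, Atf4 ranked 314 and Hspa5 978, and from Hspa5, Atf4 ranked 1078 and Ddit3 2545.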

How the data were processed

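RNA-seq libraries were made from polyadenylated RNA. Per the labels and the paper's methods, the authors aligned paired-end reads with TopHat2 2.0.12 on a Bowtie2 2.2.3 index, counted fragments on genes with HTSeq 0.6.1 (union mode) and deposited FPKM without pooling replicates; build, annotation and strand are not given in the sources used here. A higher efficiency bead capture was used for 3 samples with lower RNA amounts that the sources do not name. Their fraction is not stated, so a difference in capture cannot be told apart from a difference between fractions. Of 25425 genes listed, 1 with a row that broke off was left out. The authors' own comparison used DESeq on counts not used here, so limma replaced it.

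Libraries were scaled by median-of-ratios size factors, genes under a mean FPKM of 1 were dropped, and log2(scaled FPKM + 1) went into limma 3.58.1, run in R 4.3.3 (eBayes with trend, Benjamini-Hochberg over 12150 genes, threshold 0.05), which understates changes of weak genes. Fractions were compared in fits of 6 libraries, the other contrasts in 1 fit of 12, which share libraries. Whole fragments were recovered from FPKM steps (tolerance 0.003) for all 12150 genes, and the counting errors cover counting only. The intervals given for log2 differences are those of limma and include the variation between libraries. The code was tested on simulated data. The paper calls the libraries of a group biological replicates; which libraries of different groups came from the same culture is not stated in the sources used here. Other steps ran in Python 3.11.15 (scipy 1.17.1, pandas 2.3.3, numpy 2.4.6, matplotlib 3.10.9). The members, lists and tests were chosen with earlier results of these data known. The lists of pathway genes and cell type markers could not be counted, since 0 identifiers matched a symbol in the RefSeq table; the symbols of the 3 members came with their identifiers. Named genes were the 3 members and the gene nearest to each. Alternatives were FPKM as deposited, upper-quartile scaling, no filter, a stricter minimum FPKM of 5, a smaller pseudocount (0.1), runs of 4 consecutive sample numbers as a block, these runs within each fraction as a block (not for the differences between fractions), no trend, array weights, voom on recovered fragments, 1 fit over 4 groups, each library left out and, added after the data were seen, removal of the trend with transcript length. The exact permutation tests of the ratios between members were also added after the data were seen.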

Additional observations from a re-analysis of the deposited data

How the results depend on the processing

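Of 102 alternative fits of the 6 member differences between fractions, all 102 kept the sign and 87 passed the threshold. Atf4 passed in all 17 of each treatment and Ddit3 in all 17 in vehicle. These fits reuse the same libraries, so they are not independent tests. The share of all tested genes that kept sign and call in every fit was not counted. With FPKM as deposited the call was lost for Hspa5 in vehicle (0.27) and in Aβ (0.26) and for Ddit3 in Aβ (0.34), and for the last also without a filter (0.60, adjusted p = 0.0992, over more genes) and with the length trend removed (0.39); the cause was not tested. Leaving out 1 library gave 0.48 to 0.69 for Hspa5 in vehicle, 0.45 to 0.75 for Ddit3 in Aβ and 0.45 to 0.61 for Hspa5 in Aβ.

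With runs as a replicate block, Hspa5 in vehicle (0.61, limma adjusted p = 0.0595) lost its call, and no other member call changed; with runs within each fraction as a block, no member passed for the interaction or for Aβ against vehicle. Deviations of same-run libraries correlated at 0.406 to 0.699 within a fraction (6 pairs) and at -0.196 to 0.0681 between fractions (12 pairs), so the pairing across fractions is an assumption.

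Array weights turned the Hspa5 interaction to 0.0020 and the Aβ difference in the ribosome fraction to 0.038 for Ddit3 and 0.021 for Hspa5. Without 1 library the sign also turned, with ranges of -0.16 to 0.046 for the Hspa5 interaction, -0.24 to 0.056 (Ddit3) and -0.15 to 0.058 (Hspa5) in the ribosome fraction, and -0.036 to 0.11 (Atf4) and -0.027 to 0.075 (Hspa5) in total RNA. For Atf4 the ranges were -0.41 to -0.21 (interaction) and -0.35 to -0.16 (Aβ in the ribosome fraction), with the same sign throughout. None of these was past the adjusted threshold.

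Genes called in vehicle numbered 8545 with array weights and 1599 when a log2 fold change of 1 either way was also required (1160 in Aβ), and 1712 to 5253 in vehicle and 3025 to 5816 in Aβ with 1 library left out. Without a filter 1 gene was called for the interaction and 1 for Aβ in total RNA, and leaving out 1 library gave 0 to 1 for each (1 without vehicle total library 8). Of the 3, Ddit3 has the fewest fragments.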
